A study of Homo sapiens with 2 samples.

Results

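The EIR-higher intergenic distal regions are stretches of the genome, outside genes and away from transcription starting sites (TSS), where a FLAG-SMARCA4 ChIP-seq library of EZH2 inhibitor-resistant (EIR) cells held more reads than the library of parental cells. Members were taken from the authors' list of regions higher in the EIR clone on chromosomes 1 to 22 and X, except chromosome 10. Each had its nearest edge more than 5 kb from every TSS annotated by GENCODE (release 44, on GRCh37 or hg19) and its centre outside the body of every gene of any type. Of the 1639 EIR-higher regions on these chromosomes, 414 (25.3%, 95% Wilson interval 23.2 to 27.4%) met the rule. They were 414 of the 2104 regions in the whole EIR-higher list and of the 12896 regions in both lists, and 16.3% of the 12896 were EIR-higher. In the parental-higher list the same rule kept 1040 of 9596 regions (10.8%, 10.2 to 11.5%). Of the 414 members, 61 lay within 1 Mb of a run of at least 1 Mb of unknown bases in the reference, which here marks an assembly gap, and these are described separately. Unless stated otherwise, the values below are for the 353 members away from gaps, and the 1030 parental-higher regions chosen by the same rule, also away from gaps, stand beside them.

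The 2 libraries came from TOV21G cells, derived from an ovarian clear cell carcinoma with *ARID1A* mutations, and from a resistant clone of them, numbered 3 in the sample labels, which had been selected in the EZH2 inhibitor GSK126 as its concentration was raised from 5 to 20 μM. In both, *SMARCA4* was tagged with FLAG at its own locus and tagged cells were grown from single colonies, so each library is also a library of a picked colony. With 1 library per condition there is no spread between replicates, and no test between conditions was made. The parental library held about 25600000 reads (tags) and the EIR library 1.36 times as many. EIR tags are given both as counted and after the authors' scaling to the parental total, in which 1 EIR tag is worth 0.733. The paper reported less SMARCA4 mRNA and protein in EIR cells, and less SMARCA4 binding as a whole. Scaling to equal totals does not take such a change into account, and its part in the members was not tested. Each library served as the control of the other. The lists were made by comparing these libraries, so the folds below describe how the members were chosen.

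SMARCA4 is one of the alternative ATPases of the SWI/SNF complex, which moves and evicts nucleosomes. Besides promoters, the complex is known to occupy distal regulatory elements such as enhancers, where it is recruited with sequence-specific factors, among them the AP-1 family, and keeps the DNA accessible. Intergenic DNA also holds satellite repeats, which lie next to centromeres and on the short arms of acrocentric chromosomes and are only partly represented in reference assemblies.

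The sequences of 4 members away from gaps and of 2 beside gaps are printed first, as examples. The first 4 were picked by fold or by CAGCTG count, so their GC content need not be typical of the members. All come from the plus strand of the GRCh37 reference. In the first 4, capitals mark the E-box letters CAGCTG or CACGTG and the AP-1 letters TGANTCA, and each stretch is the 300 bases of the region with the most such letters, or its centre where there were none. The members near *TFAP2B* and *CEBPA* were among the 4 with the largest fold, and those near *HERC1* and *BOK* were among the members of 500 bp with the most CAGCTG. In the last 2, capitals mark GGAAT or its complement ATTCC, the repeat unit of human satellites II and III, and each is the 150 bases of the region with the most copies.
TFAP2B, chr6:50755309-50755608: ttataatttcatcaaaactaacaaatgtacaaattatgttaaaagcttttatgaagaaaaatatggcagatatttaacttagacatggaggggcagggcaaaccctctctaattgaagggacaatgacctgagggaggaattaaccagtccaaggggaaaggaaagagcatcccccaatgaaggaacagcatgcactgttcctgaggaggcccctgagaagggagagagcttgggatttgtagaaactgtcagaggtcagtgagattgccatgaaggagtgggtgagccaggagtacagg
CEBPA, chr19:33765494-33765793: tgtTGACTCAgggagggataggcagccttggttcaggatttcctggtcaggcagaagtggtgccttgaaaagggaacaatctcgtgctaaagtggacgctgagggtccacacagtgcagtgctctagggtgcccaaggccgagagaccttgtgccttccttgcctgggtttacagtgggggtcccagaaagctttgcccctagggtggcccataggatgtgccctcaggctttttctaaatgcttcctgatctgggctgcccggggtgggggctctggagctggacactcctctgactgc
HERC1, chr15:64152329-64152628: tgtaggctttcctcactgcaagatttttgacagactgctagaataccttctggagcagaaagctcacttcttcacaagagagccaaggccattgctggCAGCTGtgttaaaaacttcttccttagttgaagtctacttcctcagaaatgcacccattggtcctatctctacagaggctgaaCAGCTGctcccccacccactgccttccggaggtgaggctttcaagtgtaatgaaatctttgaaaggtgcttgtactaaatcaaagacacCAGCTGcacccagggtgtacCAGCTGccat
BOK, chr2:242472182-242472481: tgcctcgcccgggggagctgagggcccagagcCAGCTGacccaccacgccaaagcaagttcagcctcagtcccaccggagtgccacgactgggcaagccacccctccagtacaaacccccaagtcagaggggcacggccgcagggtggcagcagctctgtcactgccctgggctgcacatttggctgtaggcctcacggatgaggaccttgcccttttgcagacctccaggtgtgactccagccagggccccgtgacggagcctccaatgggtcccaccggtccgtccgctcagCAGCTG
Chromosome 21, beside a gap, chr21:10787219-10787368: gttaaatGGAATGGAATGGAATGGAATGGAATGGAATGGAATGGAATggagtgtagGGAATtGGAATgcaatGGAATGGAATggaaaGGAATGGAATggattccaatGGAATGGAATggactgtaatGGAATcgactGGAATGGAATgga
Chromosome 4, beside a gap, chr4:49110430-49110579: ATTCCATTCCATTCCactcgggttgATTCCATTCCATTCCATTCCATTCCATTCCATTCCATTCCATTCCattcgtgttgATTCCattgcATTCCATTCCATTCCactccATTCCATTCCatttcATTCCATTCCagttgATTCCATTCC

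The members were small and weak. They had a median of 24 EIR tags, 17.6 after scaling (range 14.7 to 199), and 5 parental tags (0 to 98). HOMER's smallest region is 500 bp, and 293 of the 353 members (83.0%) had exactly that length. If all tags of a library were spread evenly over the 2859 Mb of known bases of the reference, 500 bp would hold 4.48 parental tags, and the scaled EIR library the same. Per 500 bp, 161 members (45.6%, 40.5 to 50.8%) held no more than this genome average in parental cells and 330 (93.5%, 90.4 to 95.6%) no more than 2 times the average. Their scaled EIR tags had a median of 16.9 per 500 bp. These values describe the choice of the members, since the same tags put them on the list. Low parental tags were shared by other EIR-higher regions, with 50.6% of those in genes beyond 5 kb of a TSS and 32.9% of those within 1 kb of a TSS at or under the average in parental cells, and 391 of 403 and 360 of 426 at or under 2 times the average. Of the parental-higher intergenic regions, 172 of 1030 (16.7%, 14.5 to 19.1%) were at or under the average in the EIR library, the lower one for them, and 779 (75.6%, 72.9 to 78.2%) at or under 2 times the average.

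**Figure D1:**
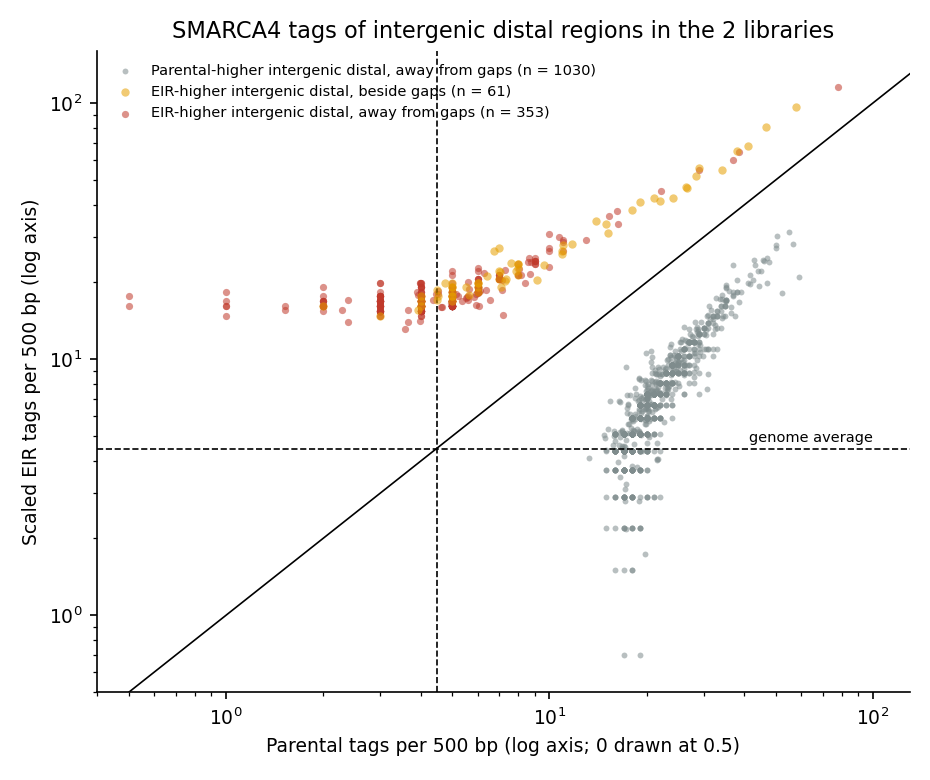
Each point is an intergenic distal region, with its parental tags per 500 bp on the x axis and its scaled EIR tags per 500 bp on the y axis, both logarithmic. The solid line marks equal tags, the dashed lines the genome average of 4.48, and the EIR-higher regions away from gaps gather around 5 parental and 16.9 scaled EIR tags.

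The median fold of EIR over parental tags was 3.67 (interval of the median 3.52 to 3.85, range 1.48 to 35.2). A fold of at least 4 was listed for 146 members (41.4%), beside 36.4% of the whole EIR-higher list. The fold was chosen by the authors' threshold and followed the tags. Its median was 4.03 in the 103 members with 20 to 22 EIR tags and 2.80 in the 57 with at least 31, because a region with few tags must have a large fold to be listed. The members with the weakest HOMER *P* value, 9.40e-05, which compares these libraries and not the conditions, had 29 or 30 EIR tags and 8 parental tags.

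The largest folds were those of members with 0 or 1 parental tag. The region with the largest fold, on chromosome 1, lies 14.0 kb from *PADI4*, which encodes an enzyme that converts arginine to citrulline in histones and other proteins. It held 24 EIR tags (17.6 scaled) and no parental tag, at least 5.87-fold higher when set against the floor of 3 parental tags. The lower Clopper-Pearson bound, which also takes in the counting error of the EIR tags, was 4.41, and the listed fold of 35.19 rests on 0.5 tag in place of 0. The next, chr6:50755208-50755708, lies 30.7 kb from *TFAP2B*, which encodes the transcription factor AP-2β. It had 22 EIR tags (16.1 scaled) against no parental tag, at least 5.37-fold higher against the same floor, with a lower bound of 4.02.
Single parental tags stood against the next members. A region 184 kb from *TAFA5*, a secreted chemokine-like protein (chr22:48701028-48701528), held 25 EIR tags and 1 parental tag (fold 18.33, 95% Clopper-Pearson interval 3.00 to 752). One 27.5 kb from *CEBPA*, a factor of myeloid and fat cell differentiation (chr19:33765468-33765968), held 23 and 1 (fold 16.86, 2.74 to 695). With 22 EIR tags and 1 parental tag each, the regions 63.7 kb from *DNAJB6*, a co-chaperone (chr7:157238226-157238726), and 9.82 kb from *TMEM250* (chr9:139020539-139021039) tied at a fold of 16.13 (2.61 to 666). The lower bounds show how little these few tags fix the size of the largest folds. These intervals cover counting error only.

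The members with the most tags were of another kind. They exceeded the genome average in both libraries and had small folds. The strongest was also the longest, the 2626 bp of chr16:88625703-88628329, 8.48 kb from *ZC3H18*, which encodes a zinc finger protein of nuclear RNA processing. It held 272 EIR tags (199.4 scaled) and 85 parental tags, a fold of 2.35 (1.83 to 3.03), and some 75-base run in it occurs 185 times in the reference. The member chr5:71146508-71147138, 131 kb from *CARTPT*, which encodes a neuropeptide precursor, had 198 EIR tags (145.1 scaled) and 98 parental tags, a fold of 1.48 (1.16 to 1.91), the smallest of all members, and a 75-base run found 1977 times. How reads that match several copies were placed is not given in the sources used here.
By contrast, every 75-base run of chr8:142724887-142727003 was unique. This member of 2116 bp lies 200 kb from *C8orf90* and held 194 EIR tags (142.2 scaled) against 69 parental tags (fold 2.06, 1.56 to 2.75). The remaining members among the 5 with the most tags were chr2:133028920-133029680 near *ANKRD30BL* (114 EIR and 44 parental tags, fold 1.9, 1.33 to 2.75) and chr9:68423938-68424562 (110 and 48 tags, fold 1.68, 1.19 to 2.41). The third longest member was chr9:134673691-134675217, 58.2 kb from *RAPGEF1*, a guanine nucleotide exchange factor, with 71 EIR and 20 parental tags (fold 2.6, 1.57 to 4.51).

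Exact repeats of the length of a read were not usual among the members. Reads were 75 bases long, and 28 of the 353 members (7.93%, 5.54 to 11.2%) held at least one 75-base run found more than once in the reference. The share was 7.09% (5.67 to 8.82%) in the parental-higher regions and 16.6% (14.4 to 19.0%) in 1000 evenly spaced 500-bp windows of the reference that met the same rule of position. For runs of 36 bases the shares were 41.1% (36.1 to 46.3%), 39.2% (36.3 to 42.2%) and 48.3% (45.2 to 51.4%). Diverged copies of repeats were not counted.

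The members were rich in G and C, and few had the CpG content of a CpG island. Their median GC content was 50.4% (49.4 to 51.4%), against 45.2% (44.6 to 45.6%) in the parental-higher intergenic regions. All 1663712 windows of 500 bp that met the rule of position had a median of 39.0%. At least 50% GC was found in 182 members (51.6%, 46.4 to 56.7%), in 26.6% (24.0 to 29.4%) of the parental-higher regions and in 9.01% of the windows. The 324 parental-higher regions with tags in the middle range of the members, between the quartiles of their scaled EIR tags, had a median of 44.9% (43.8 to 45.6%). Parental tags, fold and length were not matched in this comparison.
High GC content in the human genome is often that of CpG islands, in which CpG is not depleted. Here the ratio of observed to expected CpG had a median of 0.186 (range 0 to 0.811), and a ratio of at least 0.6 was found in 9 members (2.55%, 1.35 to 4.77%). The parental-higher regions had a median ratio of 0.201, with 63 (6.12%, 4.81 to 7.75%) at 0.6 or above, and the windows a median of 0.163, with 1.24% at 0.6 or above. The median ratio of the members (interval 0.174 to 0.198) was thus slightly above that of the windows. Its interval overlapped that of the parental-higher regions (0.192 to 0.210). High GC content was shared by the 403 EIR-higher regions that lie in genes beyond 5 kb of a TSS, with a median of 49.4% (48.9 to 50.6%), and so was not particular to intergenic members. Among members it did not rise with the tags, with 51.8% in those with 20 to 22 EIR tags and 49.0% in those with at least 31. The GC content of the reads of each library was not analysed here, and its part in this difference was not tested.

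**Figure D2:**
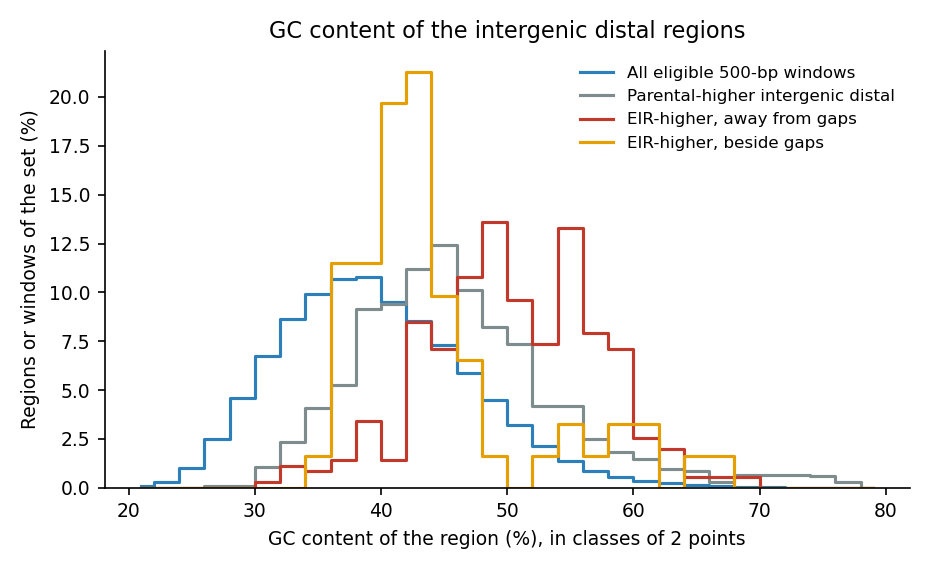
The x axis gives GC content in classes of 2 points and the y axis the percent of each set in a class, for EIR-higher members away from and beside gaps, parental-higher intergenic regions and all eligible windows. Members away from gaps have a median of 50.4%, to the right of the parental-higher regions (45.2%), those beside gaps (42.5%) and the windows (39.0%).

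The sites that DNA-binding factors prefer were counted as plain letter matches on both strands in the central 500 bp, for 14 motifs. A match is a description and does not show binding. CAGCTG, an E-box read by basic helix-loop-helix factors, was the most frequent. It was present in 112 members (31.7%, 27.1 to 36.8%), in 23.6% (21.1 to 26.3%) of the parental-higher regions and in 14.8% of windows. Of the members, 31 (8.78%) had it at least 2 times in the region's central 500 bp, against 3.79% of the parental-higher regions, and the stretch near *HERC1* printed above has it 4 times. Other EIR-higher regions had CAGCTG about as often, 121 of 403 in genes (interval 25.8 to 34.7%) and 145 of 426 (29.7 to 38.7%) within 1 kb of a TSS, with at least 2 matches in 5.96% and 8.92%. These letters are rich in G and C, and in windows weighted to the GC content of the members 28.5% had a match, which lies within the members' interval. For at least 2 matches no share of windows was computed, so the part of GC content in that difference was not tested. The E-box CACGTG, the site of MYC and USF factors, was found in 32 members (9.07%, 6.49 to 12.5%), 5.73% (4.47 to 7.32%) of parental-higher regions and 7.19% of the weighted windows. Here too the weighted windows lay within the members' interval. The SP/KLF letters GGGGCGG behaved likewise, with 5.67% of members (3.70 to 8.59%), 6.60% of parental-higher regions and 5.44% of weighted windows.

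AP-1 letters stood above the windows weighted to GC content in both lists, though only narrowly in the members. TGANTCA was found in 65 members (18.4%, 14.7 to 22.8%) and in 13.5% of the windows weighted to their GC content, just below the members' interval, and in 15.5% of the unweighted windows, within it. In the parental-higher regions the share was 22.3% (19.9 to 25.0%), against 14.6% in windows weighted to theirs. The members and the parental-higher regions overlapped in their intervals. In other EIR-higher regions the share was 18.1% in genes and 11.0% within 1 kb of a TSS. The TEAD letters GGAATG were at 29.7% (25.2 to 34.7%) in members, 29.1% (26.4 to 32.0%) in parental-higher regions and 25.8% in weighted windows. ETS letters (CCGGAAG) were rare, in 3 members (0.850%, 0.289 to 2.47%), against 2.43% (1.65 to 3.56%) of parental-higher regions and 2.23% of weighted windows. For FOX (TGTTTAC) the members' share was 5.38% (3.47 to 8.25%), that of parental-higher regions 8.35% (6.81 to 10.2%) and that of weighted windows 6.13%. For both ETS and FOX the weighted windows lay within the members' interval. Shares in members were 4.82% for AGATAAG, read by the zinc finger factors of the GATA family, 2.55% for HNF1 (TTAATNATT), 7.08% for SOX (ACAATGG), 9.35% for RUNX (TGTGGTT), 2.83% for NF-κB (GGGANTTCC), 2.55% for YY1 (AAGATGGC) and 0.567% for CTCF. For each of these 7 the weighted windows lay within the members' interval. None of the 14 motifs matched in 91 members (25.8%), as in 24.5% of the parental-higher regions.

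**Figure D3:**
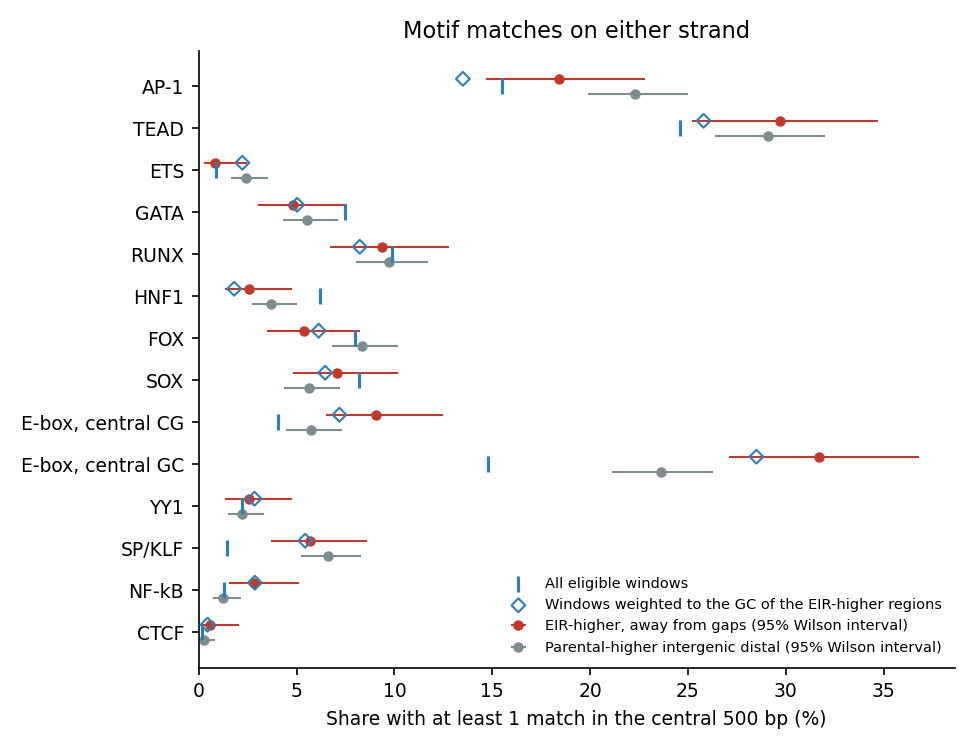
For each of 14 motifs on the y axis, the x axis gives the percent of regions with at least 1 match in the central 500 bp, with 95% Wilson intervals, beside all eligible windows and windows weighted to the GC content of the members. The E-box with central GC is at 31.7% in members and 23.6% in parental-higher regions, and the weighted windows stand at 28.5%.

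The ends of chromosomes held more members than the space there would give. Within 5 Mb of a chromosome end lay 72 members (20.4%, 16.5 to 24.9%), 7.28% (5.85 to 9.03%) of the parental-higher regions and 5.59% of the windows. Within 2 Mb the shares were 11.3% (8.43 to 15.1%), 1.84% (1.18 to 2.86%) and 2.02%. Members reached 26 of the 39 chromosome ends that held eligible windows, and 16 of the 72 were at the end of the long arm of chromosome 4. Without that group the share within 5 Mb was 16.6% (13.0 to 21.0%). The position was shared by other EIR-higher regions, with 20.6% (16.9 to 24.8%) of those in genes and 25.4% (21.5 to 29.7%) of those within 1 kb of a TSS. Chromosome ends are rich in G and C. The windows had a median of 45.2% within 5 Mb of an end and 38.6% elsewhere, and the members 54.8% (51.8 to 57.4%) and 49.6% (48.6 to 50.8%), so members exceeded the windows in GC content in both places. Copy number in the clone was not measured here, and its part in where the members lie was not tested.

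**Figure D4:**
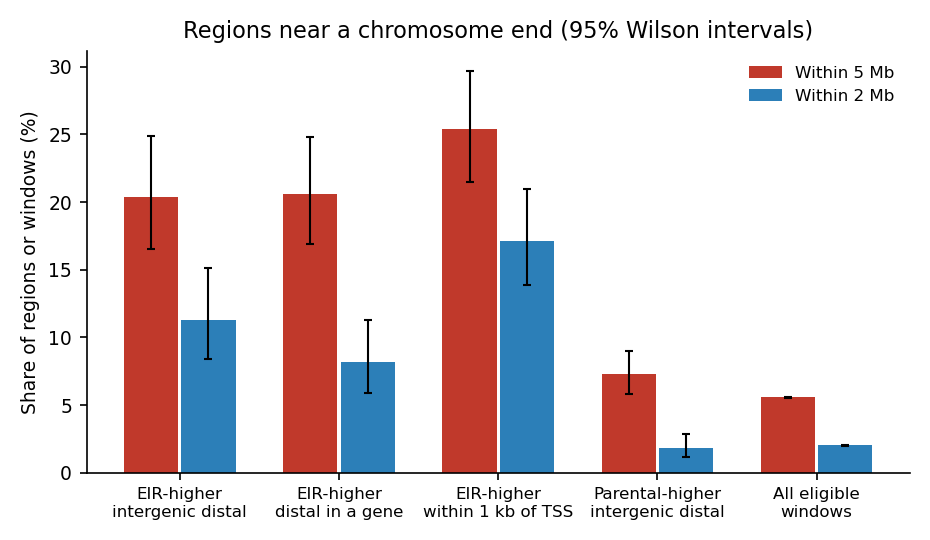
Bars give the percent of each set of regions within 5 Mb and within 2 Mb of a chromosome end, with 95% Wilson intervals. The 3 EIR-higher sets stand at 20.4, 20.6 and 25.4% within 5 Mb, the parental-higher intergenic regions at 7.28% and the windows at 5.59%.

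Members were mostly scattered. Another member lay within 100 kb of 83 of the 353 (23.5%), in 30 groups of which 9 had at least 3 members, whereas 602 of the 1030 parental-higher regions (58.4%) had a neighbour of their own kind. The lists differ in size, and the part of that in these shares was not tested. The largest group had 16 members in 186 kb near the end of the long arm of chromosome 4 (chr4:190474260-190660406), 0.494 Mb from the end of the reference. The nearest protein-coding gene for all 16 was *FRG1*, named for its location in the region linked to facioscapulohumeral muscular dystrophy, and the nearest genes of any type included *LINC01262* and *HSP90AA4P*. Summed over the group there were 537 EIR tags (394 scaled) and 138 parental tags, a fold of 2.85 (2.36 to 3.46), and single members had folds from 2.26 to 4.98.
In parental cells 14 of its 16 members exceeded the genome average, and the median was 7.50 tags per 500 bp (3.99 to 13.0), above the average and below 2 times the average. The member with the most EIR tags, chr4:190523977-190524829, held 53 against 17 parental tags, and the one with the largest fold, chr4:190652797-190653423, held 34 against 5. A further 4 EIR-higher regions, nearer than 5 kb to a TSS, brought the number in this interval to 20, with 1 parental-higher region among them. From 2 Mb before the group to the end of the chromosome there was no other EIR-higher region. Duplicated sequence was common here, and 7 of the 16 members held a 75-base run found elsewhere in the reference.

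**Figure D5:**
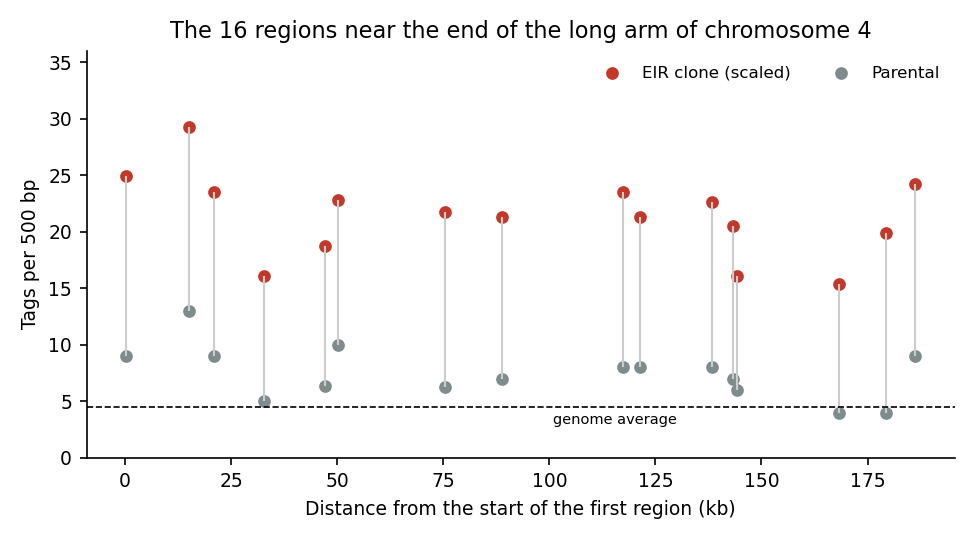
For the 16 members of the group near the end of the long arm of chromosome 4, the x axis gives the distance from the start of the first in kb, and the points give scaled EIR tags and parental tags per 500 bp. Each EIR point lies above its parental point, and 14 of the 16 parental points lie above the genome average (dashed line, 4.48).

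Smaller groups had at most 4 members. Of these, 4 members in 44.4 kb (chr8:2197862-2242256) had *MYOM2*, which encodes a protein of the sarcomere's M-band, as their nearest coding gene and held 115 EIR and 26 parental tags (fold 3.24, 2.10 to 5.17). Among the groups of 3, the one near *ZC3H18* (chr16:88603488-88628329) held 316 EIR and 92 parental tags (fold 2.52, 1.99 to 3.21), most of them from the strong member described above. The 3 members near *ANKRD30BL* (chr2:133026476-133032896) summed to 237 and 93 tags (fold 1.87, 1.46 to 2.40). On chromosome 9 (chr9:68423938-68501818), 3 members held 211 and 80 tags (fold 1.93, 1.49 to 2.53), and 2 of them had repeated 75-base runs. In none of these 4 groups did a parental-higher region lie between the members.

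Parental-higher regions were nonetheless common in the neighbourhood of members. A parental-higher region of any kind lay within 100 kb of 181 members (51.3%, 46.1 to 56.4%) and of 20.7% of the windows, and within 10 kb of 34 members (9.63%, 6.97 to 13.2%) and 2.99% of the windows. Shared bases were rare, with 2 members overlapping a parental-higher region. Members thus had parental-higher regions near them more often than the windows did, but seldom shared bases with them. The windows were not matched to the members in GC content or in distance to genes. The part of these in the difference was not tested. The lists come from the same pair of libraries.

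The median distance from a member to the nearest TSS of any transcript was 18.9 kb (range 5.14 to 194 kb), and to the nearest protein-coding TSS 50.3 kb (5.17 to 774 kb). The nearest TSS was that of a lncRNA for 144 members (40.8%) and of a protein-coding gene for 104 (29.5%). Farthest from any TSS was chr8:78611422-78611922, at 194 kb, with 22 EIR and 5 parental tags (fold 3.23, 1.19 to 10.9), and its nearest coding gene, *PEX2*, encodes a factor of peroxisome formation. The next 4, at 185 to 190 kb, had *CDKN3*, *PKDCC*, *MAN2A1* and *SPTLC3* as nearest coding genes, 22 or 23 EIR tags and 3 or 4 parental tags. These farthest members thus had low tags, as most members did. Other remote members did not, such as chr8:142724887-142727003, 133 kb from any TSS, with 194 EIR and 69 parental tags. Tags were not compared with distance over all members.
At the threshold of 5 kb, the members just beyond it were chr12:89739150-89739650 (5.14 kb from a TSS, 5.30 kb from *DUSP6*, a phosphatase of ERK kinases, 23 EIR and 4 parental tags), chr12:68141821-68142321 (5.16 kb, 23 and 2 tags) and chr17:76668720-76669388 (5.17 kb, from *CYTH1*, 28 and 4 tags). Just within it were regions 4.99 kb from *ZBTB40* (22 and 4 tags) and 4.99 kb from *BMP7* (36 and 10) and 4.98 kb from *SNORA67* (24 and 4), which were not members. These are 3 regions on each side, and all regions on both sides were not compared.

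The nearest protein-coding gene of a member is an address and not a target. The 353 members had 302 such genes, of which 273 had 1 member and 21 had 2. Of the 302, 12 (3.97%) had an EIR-higher region within 1 kb of a TSS, against 1.97% of all 20149 coding genes, and 110 (36.4%) had a parental-higher region there, against 23.2%. For the 649 genes nearest to the parental-higher intergenic regions the shares were 1.54% and 46.8%. Parental-higher promoters were thus the more common of the 2 kinds among these genes, as in the genome as a whole. There, 4670 coding genes had one and 396 had an EIR-higher one, so this order follows the size of the lists. Both kinds were more frequent among the 302 genes than among all coding genes, the EIR-higher kind with 12 genes. Neither the set of chromosomes nor the spacing of genes was matched in this comparison, and their part in it was not tested.

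In 10 gene lists with 394 genes, 15 members (4.25%) had a listed gene as their nearest coding gene, as had 7.57% of the parental-higher regions. For SWI/SNF subunits, PRC2 and H3K27 demethylases, AP-1 factors, and cadherins, integrins and matrix genes there was no member. These lists have 30, 13, 17 and 60 genes, and the BCL2 family 21, out of 20149 coding genes. With lists this small, the absence of a member or a single member says little. The share of windows nearest to a listed gene was not computed. In the BCL2 family 1 member was found, 18.3 kb from *BOK*, which encodes a pro-apoptotic member of the family (chr2:242472021-242472521). It held 22 EIR tags (16.1 scaled) and 2 parental tags, a fold of 8.06 (1.98 to 70.7), and its sequence, with 2 CAGCTG, is among those printed above.
Developmental transcription factors had 5 members in the list of SOX, FOX, KLF and homeobox genes. The member 52.7 kb from *SOX13* had 29 EIR and 2 parental tags (fold 10.63, 2.69 to 91.9). Near *IRX5*, at 32.3 kb, there were 22 and 2 tags (fold 8.06, 1.98 to 70.7). At 367 kb from *SOX11* the tags were 25 and 3 (fold 6.11, 1.86 to 31.6), and 29.5 kb from *KLF13* they were 24 and 5 (fold 3.52, 1.32 to 11.8). The strongest by tags of the 5, near *LHX2*, had 71 EIR tags. In the list of Müllerian and clear cell lineage factors, the member 158 kb from *LHX1*, a LIM homeobox factor needed for the Müllerian duct, held 50 EIR and 11 parental tags (fold 3.33, 1.71 to 7.10).
Signalling genes made up most of the remainder. In the WNT and TGF-β list there were 5 members. Both members near *BMP7*, which encodes a bone morphogenetic protein ligand, were among them, at 78.4 kb (23 EIR and 2 parental tags, fold 8.43, 2.08 to 73.8) and at 28.0 kb (34 and 5, fold 4.98, 1.94 to 16.3). The member 66.5 kb from the ligand gene *WNT11* held 22 and 3 tags (fold 5.38, 1.61 to 28.1), and that 150 kb from *SFRP1*, a secreted WNT antagonist, held 23 and 5 (fold 3.37, 1.25 to 11.4). The member near *TGFBR2*, which encodes a TGF-β receptor, had 35 and 9 tags. Of receptor tyrosine kinases and ligands, *HBEGF*, an EGF receptor ligand, had a member at 11.4 kb (21 and 4 tags, fold 3.85, 1.30 to 15.4) and *FGFR1* had one at 26.7 kb (22 and 5 tags, fold 3.23, 1.19 to 10.9). *VGLL2*, a cofactor of TEAD factors, had one as well (23 and 3 tags, fold 5.62, 1.70 to 29.2). Of the 15, those with fewer than 5 parental tags have intervals that span more than a 10-fold range, so the order of their folds is not fixed by these counts.

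The 61 members beside assembly gaps were of another composition. They made up 14.7% (11.6 to 18.5%) of the 414, while 10 of the 1040 parental-higher intergenic regions (0.962%, 0.523 to 1.76%) were beside a gap. Chromosome 21 held 30 of the 61, chromosome 4 held 11 and chromosome 2 held 6. The median was 38 EIR tags (20 to 923) and 9 parental tags (2 to 393), and per 500 bp the medians were 21.9 scaled EIR tags and 7.28 parental tags, above the 16.9 and 5.00 of members away from gaps. The median fold was 2.93 (range 1.6 to 8.06). Among them 37 (60.7%, 48.1 to 71.9%) had at least 10 copies of GGAAT on one strand, with a median of 51 copies and up to 224, whereas no member away from gaps had more than 4. The 37 had a median fold of 2.84 and the other 24 one of 3.13.
Other features of these members differed as well. Because GGAATG occurs in the tandem repeat, the TEAD letters were found in 72.1% (44 of 61) of the members beside gaps. Their median GC content was 42.5%, and their CpG ratio had a median of 0.693, against 0.186 in the members away from gaps. A 75-base run found more than once was present in 24 of the 61 (39.3%, 28.1 to 51.9%).

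The strongest of all members, chr1:142535514-142539714, adjoined a gap at 0.0810 kb and had 224 copies of the repeat unit. It held 923 EIR tags (676.6 scaled) and 393 parental tags, a fold of 1.72 (1.53 to 1.94). On chromosome 4, chr4:49109019-49110733 held 256 EIR and 117 parental tags (fold 1.6, 1.28 to 2.01), and its 150 bases printed above contain 22 copies of ATTCC. Its neighbours chr4:49119812-49121484 (212 and 89 tags, fold 1.75, 1.36 to 2.26) and chr4:49121509-49122919 (199 and 80, fold 1.82, 1.40 to 2.39) had 194 and 155 copies. The fifth, chr21:11144642-11146280, had 3 copies and held 191 and 79 tags (fold 1.77, 1.36 to 2.33). Each of these 5 was far above the genome average in both libraries. The number of satellite copies in either cell population was not measured here, and its part in these values was not tested.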

How the data were processed

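FLAG-SMARCA4 ChIP-seq was measured in 1 parental TOV21G library and 1 library of an EIR clone. The authors aligned 75-base single-end reads to hg19 (bowtie 0.12.9 per the submitters' processing notes) and called regions with HOMER, histone style, each library the control of the other, at an FDR under 5%. The deposited parental-higher list gives the count of parental tags. The signal of the EIR library was scaled by the authors to the parental total. The deposited fold is the ratio of these tags, with 0.5 tag in place of 0. The deposited p-value is HOMER's Poisson value.

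Whole EIR tags were recovered from the step of the scaled values (100% of 145 distinct values were whole within rounding). Sequence features were read from GRCh37, in regions and in all 500-bp windows that met the same rule of position, weighted where stated in GC classes of 2 points. Folds have exact Clopper-Pearson intervals (counting error only). Shares have Wilson and medians order-statistic intervals at 95%, which treat regions as independent draws. No test is given as a result, since the contrast chose the members, and the exact binomial test tried as an alternative used the same tags. Functions were tested on simulated data.

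Regions named were the 5 with the largest fold, the 5 with the most EIR tags, the 5 farthest from a TSS, the 3 longest, the 3 on either side of 5 kb, the 5 largest groups, up to 4 for each of 10 gene lists and the 5 strongest beside gaps. Those near *TMEM250*, *LHX2*, *TGFBR2* and *HERC1*, those with the weakest *P* value and 2 of the chromosome 4 group were named after their values were seen. Members, gene lists and motifs were chosen with earlier results of these data known. Alternatives were other distances, gene sets, thresholds, scalings, pseudocounts, overlaps and run lengths. Work was done in Python 3.11.15 with scipy 1.17.1, pandas 2.3.3, numpy 2.4.6 and matplotlib 3.10.9.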

Additional observations from a re-analysis of the deposited data

How the results depend on the processing

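The 353 members away from gaps became 584 when only protein-coding genes were used, 146 at a fold of at least 4, 108 at a *P* value of at most 1e-06, and 33 when the EIR library was scaled 1.5 times lower. The last shows that most members lie close to the authors' threshold, so their number rests on the scaling by total tags. The exact binomial test used the tags that chose the members, so its count of 353 was fixed by the choice and says nothing about stability. The median fold became 3.17 with a pseudocount of 1 tag and 2.45 with the lower scaling. Members within 100 kb of another numbered 50 at 20 kb. Repeats were found in 145 members with runs of 36 bases in place of 28. Shared bases with parental-higher regions fell from 2 to 0 at 50% of the shorter region. Among the 108 members with a *P* value of at most 1e-06, CAGCTG was in 38.9% and the FOX letters in 2.78%. Of the 338 parental-higher regions at that value, 19.5% and 8.28% had them. Only these of the 14 motifs left the interval of all members. Others also differed between the stricter sets, with SOX at 10.2% of members against 4.44%, CACGTG at 10.2% against 4.73% and RUNX at 7.41% against 13.6%. GC content was not matched between these sets, and no windows weighted to it were computed, so its part in these shares was not tested. Of 54 alternatives, the binomial test included, 43 stayed within 1.5 times the count or within the interval, among them all those for GC content (49.4 to 50.6%). Leaving out the chromosome 4 group, tried after seeing the data, moved no count by over 1.5 times. No paired analysis was possible because each condition has 1 library. Folds of members with few parental tags have wide intervals, and the order of these folds is not fixed at this depth.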

Other observations

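Members were unevenly spread over chromosomes. Per 10 Mb of intergenic distal sequence there were 4.24 members on average, with 10.2 on chromosome 17, 10.0 on chromosome 15, 9.27 on chromosome 22 and 9.25 on chromosome 16. The X chromosome had the lowest density, 0.876, from 6 members. Much of this was shared by the parental-higher regions, at 12.4 per 10 Mb on average. They had 25.8 on chromosome 17, 19.4 on chromosome 15, 37.1 on chromosome 22, 13.4 on chromosome 16 and 7.88 on the X chromosome. Of intergenic distal regions that differed in either direction, 25.5% (23.3 to 27.9%) were EIR-higher over these chromosomes, 40.9% on chromosome 16 (18 of 44) and 10.0% on the X chromosome (6 of 60). The cause of this spread was not tested.

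Across the 353 members, EIR and parental tags had a Spearman rank correlation of 0.70 and GC content and fold one of 0.17. Both are descriptions across regions of the same 2 libraries, and the selection threshold links the first pair.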
